A study of Drosophila melanogaster with 24 samples.

Results

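Muscle structure and contraction genes are described here in the deposited RNA-seq comparison of Drosophila melanogaster fat body. The list holds 32 genes that encode the myosin and actin filaments, their regulators, the giant elastic linkers, Z-disc proteins and the calcium machinery of muscle. They were chosen by gene symbol, and all 32 were found among the 13234 genes of the authors' deposited table. Fat body was dissected from virgin w1118 females aged 25 days, with 25 flies pooled in each library. There were 4 groups of 6 libraries. Flies were kept at 11 °C with S-methoprene, an analogue of juvenile hormone, at 11 °C with its solvent ethanol, at 25 °C with S-methoprene, or at 25 °C with ethanol. Only flies with the ovary state typical of their condition were used, which was a regressed ovary for ethanol at 11 °C and a large one for the rest, so the groups differ in ovary state by selection.

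The authors' deposited table holds 1 comparison, with a mean over libraries, a log2 fold change, its standard error (SE) and a p-value for each gene, and no value per library. It names neither the factor compared nor the direction of its fold changes. A gene with a log2 fold change above 0 is therefore called higher on the positive side, with no temperature or hormone treatment assigned to either side. The depth of single libraries and the values of single libraries are unknown. In bulk tissue, fewer muscle fibres and less muscle RNA per fibre cannot be told apart.

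In a muscle fibre, thick filaments of myosin pull on thin filaments of actin that are anchored in the Z-disc, and the repeating unit between Z-discs is the sarcomere. Calcium released from internal stores binds troponin C on the thin filament, which moves tropomyosin aside and lets myosin bind. Insects use different actin and troponin C genes in different fibre types, among them the fibrillar flight muscles of the thorax and the tubular muscles of leg and body wall. Fat body is not a contractile tissue, but it lines the body wall and lies against muscle, and the heart tube with its muscle fibres runs along the dorsal abdomen.

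The normalised means of the 32 genes summed to 14459 in the authors' deposited table, which is 0.306% of the sum over all genes. SERCA, which is not limited to muscle, made the largest single part, so the share of RNA from muscle itself is not known. Of the 32 genes, 27 had a mean at or above the table median of 50.0. As a check of the tissue, the 12 fat body markers summed to 51550, or 1.09% of the total, with FASN1, a fatty acid synthase, at a mean of 19175 and apolpp, the precursor of the lipid carrier lipophorin, at 18112 in the authors' deposited table. Of those 12 markers, 0 had a mean below 1. Markers of other abdominal tissues were also abundant. The 6 oenocyte markers summed to 169157, or 3.58% of the total, with Cyp4g1, a cytochrome P450 of hydrocarbon synthesis, at 123338, the highest mean of the authors' deposited table. The 7 gut markers summed to 29121, or 0.617%, with the trypsin gene alphaTry at 18683 in the deposited table. The larval storage and fat body proteins Lsp2, Fbp1 and Fbp2 were low, with means of 8.37, 3.38 and 4.20 in the deposited table.

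The muscle genes lay on the positive side of the deposited comparison. At the authors' adjusted p below 0.05, the 32 genes gave 19 positive calls and 0 negative calls, and the other 13 were not called. Over all 11399 genes with an adjusted p, positive calls made up 27.0% and negative calls 22.0% in the authors' deposited table. The estimate was above 0 for 31 of the 32 muscle genes, against 54.5% of all genes tested, and up, the troponin T gene, was the exception. The median log2 fold change of the muscle genes was 0.70, with a range of -0.12 to 2.51, against a median of 0.07 over all genes tested. Of the 19 called genes, 9 had an estimate of at least 2-fold, and the share of all genes called at that size was not computed.

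**Figure D1:**
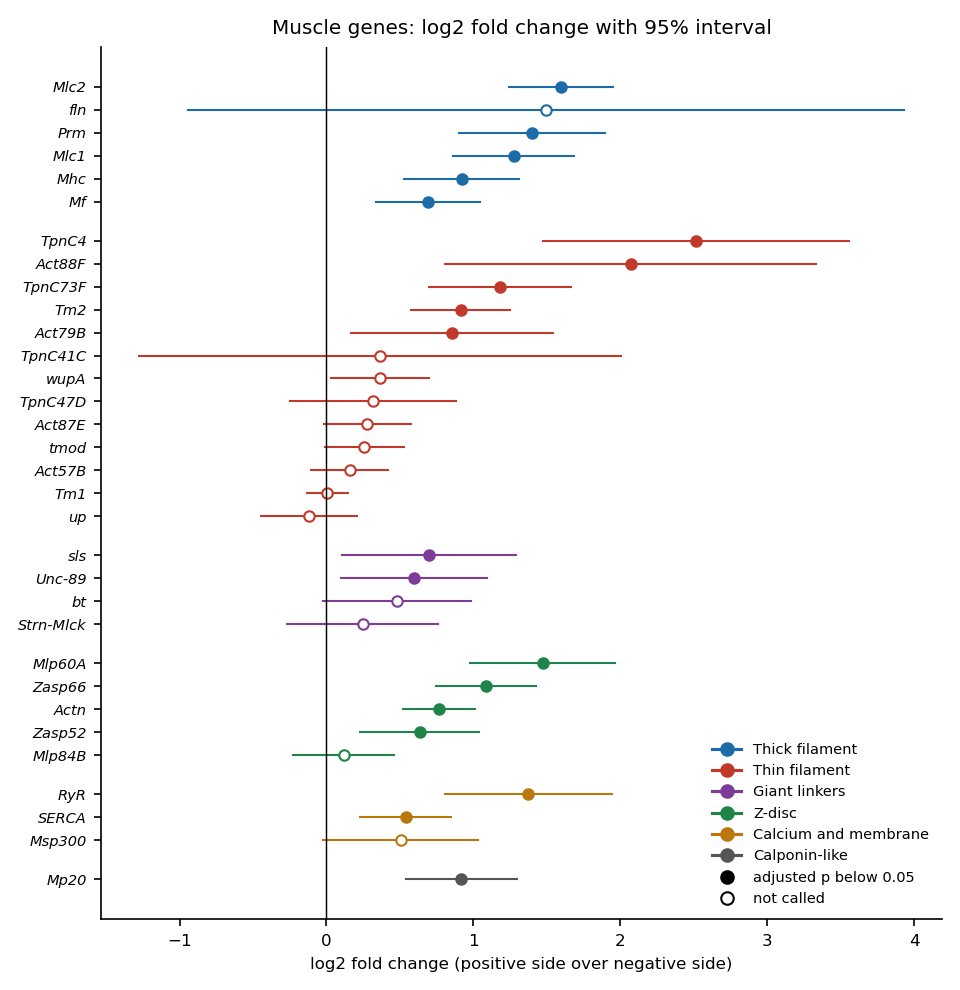
Log2 fold change of each muscle gene in the authors' deposited table (point) with its 95% normal interval (line), grouped and coloured by role, with filled points for an adjusted p below 0.05. The 19 filled points all lie to the right of 0, and up is the single gene with an estimate below 0.

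Thick filament genes had the highest median, 1.34, of the groups with more than 1 gene, and 5 of the 6 were called on the positive side. After the adjustment for length and mean given below, 4 were called positive, with a median of 0.84. Mlc2, the regulatory light chain of muscle myosin, had the smallest adjusted p of the 32 genes and stood at 1.60 (SE 0.18, adjusted p = 4.51e-17) on the log2 scale in the authors' deposited table. This is a 3.02-fold difference, with a 95% interval of 2.36 to 3.87. Mlc1, the essential light chain, stood at 1.27 (SE 0.21, adjusted p = 1.25e-08) and Prm, the paramyosin that forms the filament core, at 1.40 (SE 0.25, adjusted p = 2.84e-07) in the deposited table. Mhc, the single muscle myosin heavy chain gene, whose isoforms come from alternative splicing, was at 0.92 (SE 0.20, adjusted p = 2.03e-05) in the authors' deposited table. Mf, the myofilin gene, had the lowest called value of the group, 0.69 (SE 0.18, adjusted p = 0.000502), in that deposited table. The motor and its light chains thus all passed the threshold, with 95% intervals of 0.53 to 1.31 for Mhc, 0.86 to 1.69 for Mlc1 and 1.24 to 1.95 for Mlc2. Whether the 3 genes differ from each other was not tested, since the table gives no covariance between genes.

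The exception in the group was fln, flightin, a thick filament protein of indirect flight muscle. Its mean was 0.72 in the authors' deposited table, and its estimate of 1.49 (SE 1.24, adjusted p = 0.323) on the log2 scale could not be told from 0, with a 95% interval of -0.94 to 3.93. Of its exonic length, 61.6% is shared with an antisense RNA gene on the opposite strand, and the sources used here do not say whether the authors counted by strand.

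Levels per length differed among the myosin genes. Mlc2 had a level of 902.6 normalised counts per kb of exonic length in the authors' deposited mean, Mlc1 107.8 and Mhc 77.9. The regulatory light chain thus made up 82.9% of the summed level per kb of these 3 genes. Length here is all exonic sequence of a gene, so the level of a gene with many alternative exons, such as Mhc with 21 annotated transcripts, is understated.

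Thin filament genes were split. Of the 13, 5 (38.5%) were called on the positive side, against 27.0% of all genes, and 8 were not called. The group median was 0.36. Those called were TpnC4, Act88F, TpnC73F, Tm2 and Act79B. After the adjustment for length and mean given below, 8 of the 13 were called positive and 1 negative, with a median of 0.41. The shares of all genes were then 22.0% and 20.6%. This group held both the largest estimate of the 32 genes, that of TpnC4, and the single estimate below 0, that of up.

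The 4 muscle actin genes encode closely related proteins used in different muscles. Act88F, the actin of the indirect flight muscle, stood at 2.07 (SE 0.64, adjusted p = 0.00389) in the authors' deposited table, a 4.20-fold difference with a wide 95% interval of 1.75 to 10.1. Act79B, known from tubular muscles such as those of the leg, was at 0.85 (SE 0.35, adjusted p = 0.0325) with a mean of only 16.8 in the deposited table. The body wall muscle actins were not called. Act57B was at 0.16 (SE 0.13, adjusted p = 0.328) and Act87E at 0.28 (SE 0.15, adjusted p = 0.117) in the authors' deposited table. Act57B was by far the most abundant of the 4, with 845.7 normalised counts per kb and 78.9% of their summed level per kb, followed by Act88F with 123.0, Act87E with 92.6 and Act79B with 10.4 per kb. The most abundant muscle actin was thus one that was not called, and its 95% interval of -0.10 to 0.42 lay below that of Act88F, 0.81 to 3.33. The difference between these genes was not tested. The sources used here do not say how the authors counted reads shared between actin copies, so the values of single actin genes are uncertain.

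Troponin C, the calcium sensor, is encoded by several genes in the fly. TpnC4, the main form of flight muscle, stood at 2.51 (SE 0.53, adjusted p = 1.24e-05) on the log2 scale in the authors' deposited table, a 5.71-fold difference with a 95% interval of 2.78 to 11.7. TpnC73F was at 1.18 (SE 0.25, adjusted p = 9.42e-06) in the same deposited table. TpnC47D at 0.31 (SE 0.29, adjusted p = 0.375) and TpnC41C at 0.37 (SE 0.84, adjusted p = 0.741) were not called in the authors' deposited table. TpnC41C had a mean of 1.50, and its 95% interval ran from 0.41-fold to 4.02-fold. The level per kb was highest for TpnC73F, 55.4, then 35.8 for TpnC4, 13.8 for TpnC47D and 0.80 for TpnC41C.

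The other troponin subunits were not called. The troponin T gene up was at -0.12 (SE 0.17, adjusted p = 0.579) and the troponin I gene wupA at 0.36 (SE 0.17, adjusted p = 0.0637) in the authors' deposited table. The 95% interval of up, -0.44 to 0.21, held no 2-fold difference in either direction. That of wupA, 0.03 to 0.70, lay just above 0, and of the genes not called wupA had the smallest adjusted p. The troponin genes thus ranged from -0.12 for up to 2.51 for TpnC4.

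Tropomyosin genes lie side by side on chromosome arm 3R, Tm1 from 15278220 to 15308779 and Tm2 from 15310193 to 15315197 in genome release 6. Tm2, a muscle tropomyosin, was called at 0.91 (SE 0.17, adjusted p = 9.43e-07) in the authors' deposited table. Tm1, which makes muscle and non-muscle isoforms from 18 annotated transcripts, stood at 0.01 (SE 0.07, adjusted p = 0.955) in the deposited table. Its interval of -0.13 to 0.14 was the narrowest of the 32 genes. The intervals of these neighbours did not overlap, and their difference was not tested. Reads were summed per gene in the deposited table, so a change of single Tm1 isoforms could not be seen. The pointed-end cap of the thin filament, tmod, was at 0.26 (SE 0.14, adjusted p = 0.105) in the authors' deposited table.

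Members grouped here under flight muscle can be set beside those grouped under tubular and body wall muscle. This grouping places each gene in 1 type only and was not measured in these data. Of Act88F, TpnC4 and fln, 2 were called, with estimates of 2.07, 2.51 and 1.49. Of the 7 genes Act57B, Act79B, Act87E, TpnC41C, TpnC47D, TpnC73F and Mp20, 3 were called, and their estimates ranged from 0.16 to 1.18. The estimates of the flight muscle genes were all above those of the other 7, but the interval of fln covers all of them, and the lower bound of Act88F, 0.81, lies below the estimates of Act79B, Mp20 and TpnC73F. The difference between the fibre types was not tested.

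The giant proteins that link filaments to the Z-disc and to each other had small and uncertain values. Sallimus, encoded by sls and related to titin, was called at 0.70 (SE 0.30, adjusted p = 0.0429) in the authors' deposited table. Unc-89, the obscurin of the M-line, was called at 0.59 (SE 0.25, adjusted p = 0.0401) in the same deposited table. Projectin, encoded by bt, at 0.48 (SE 0.26, adjusted p = 0.107) and Strn-Mlck at 0.25 (SE 0.26, adjusted p = 0.448) were not called in the authors' deposited table. The 4 estimates lay between 0.25 and 0.70 with overlapping intervals. Both calls were close to the threshold, and neither held once genes of like length were taken into account, as given below.

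Among Z-disc genes, 4 of 5 were called on the positive side, with a group median of 0.77. After the adjustment for length and mean given below, 3 were called positive, with a median of 0.42. Mlp60A, a muscle LIM protein gene, had the largest value at 1.47 (SE 0.25, adjusted p = 4.39e-08) in the authors' deposited table. Mlp84B, the second muscle LIM protein gene, was at 0.12 (SE 0.18, adjusted p = 0.596) in that deposited table, although both had like levels, 59.8 and 52.8 normalised counts per kb. Their 95% intervals, 0.98 to 1.96 and -0.23 to 0.46, did not overlap, and the difference was not tested. Zasp66, a PDZ-domain protein of the Z-disc, was called at 1.09 (SE 0.17, adjusted p = 3.35e-09) and Zasp52, its larger relative, at 0.63 (SE 0.21, adjusted p = 0.00593) in the authors' deposited table. Actn, the alpha-actinin that crosslinks actin in the Z-disc, was called at 0.77 (SE 0.13, adjusted p = 1.04e-08) in the deposited table. Of the exonic length of Actn, 15.7% is shared with exons of east and 3.7% with exons of CG4313, both on the opposite strand. A further overlap, 5.0% of that length, is with exons of usp on the same strand.

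Of the calcium and membrane genes, both calcium transport genes were called. RyR, the channel that releases calcium from the store, stood at 1.37 (SE 0.29, adjusted p = 1.1e-05) and SERCA, the pump that refills it, at 0.54 (SE 0.16, adjusted p = 0.00229) in the authors' deposited table. SERCA is used in every cell type and was the most abundant of the 32 genes by mean, 3121 in the deposited table and 377.6 per kb, against 51.5 and 3.14 per kb for RyR. Of the exonic length of SERCA, 16.0% is shared with a gene on the opposite strand. Msp300, a nesprin that holds nuclei in place in muscle, was not called at 0.50 (SE 0.27, adjusted p = 0.109) in the authors' deposited table. Mp20, a calponin-like protein of muscles other than flight muscle, was called at 0.92 (SE 0.19, adjusted p = 1.01e-05) in the deposited table, with a level of 421.2 per kb.

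A stricter test asked which genes differed by more than a set size. Against a null of an absolute log2 fold change of at most 0.5, a Wald test on the authors' deposited values, adjusted over all 11399 genes, gave 8 positive and 0 negative calls among the muscle genes, against 7.92% and 4.81% of all genes. These were Mlc1, Mlc2, Prm, TpnC4, TpnC73F, Zasp66, Mlp60A and RyR. With a null of at most 1, Mlc2 alone passed (adjusted p = 0.0289), and the share of all genes at that size was not computed. Act88F, the second-largest estimate, did not pass at 0.5 (adjusted p = 0.101), with its standard error of 0.64. Of the 13 genes not called, 10 had a 95% interval inside 2-fold in both directions, the others being fln, TpnC41C and Msp300.

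**Figure D2:**
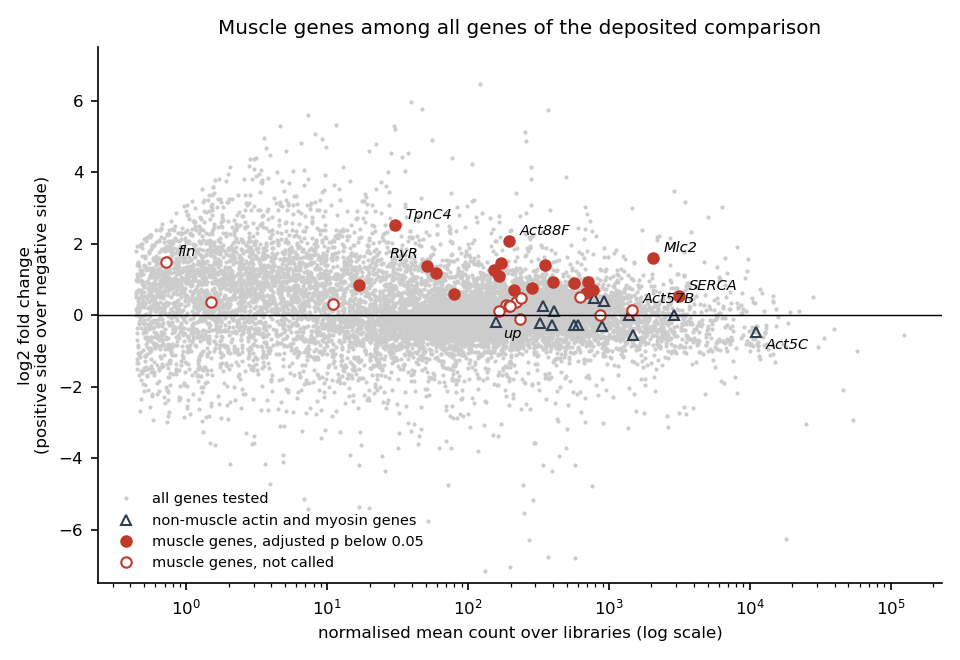
Log2 fold change against normalised mean count (log scale) for all genes tested (grey), the muscle genes (red circles, filled where the adjusted p is below 0.05) and 14 non-muscle actin and myosin genes (triangles). Called muscle genes lie above 0 from Act79B, with a mean of 16.8, to SERCA, with a mean of 3121, while Act5C lies below 0.

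The deposited fold changes went with gene length, and some muscle genes are among the longest of the genome. Across 6593 genes whose mean was not below the table median, the Spearman correlation of exonic length and log2 fold change was 0.377, and over all 11364 genes tested with a known length it was 0.193, both as descriptions across genes that share the same libraries. Split into 5 bins of length, the 6593 genes had a median of -0.32 on the log2 scale in the shortest bin and 0.29 in the longest. Of the 27 muscle genes with such means, 14 were in the longest bin, with Msp300 at 69810 bases and sls at 58996. Within the 32 muscle genes the correlation ran the other way, at -0.289, so the longest muscle genes were not the ones with the largest values.

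**Figure D3:**
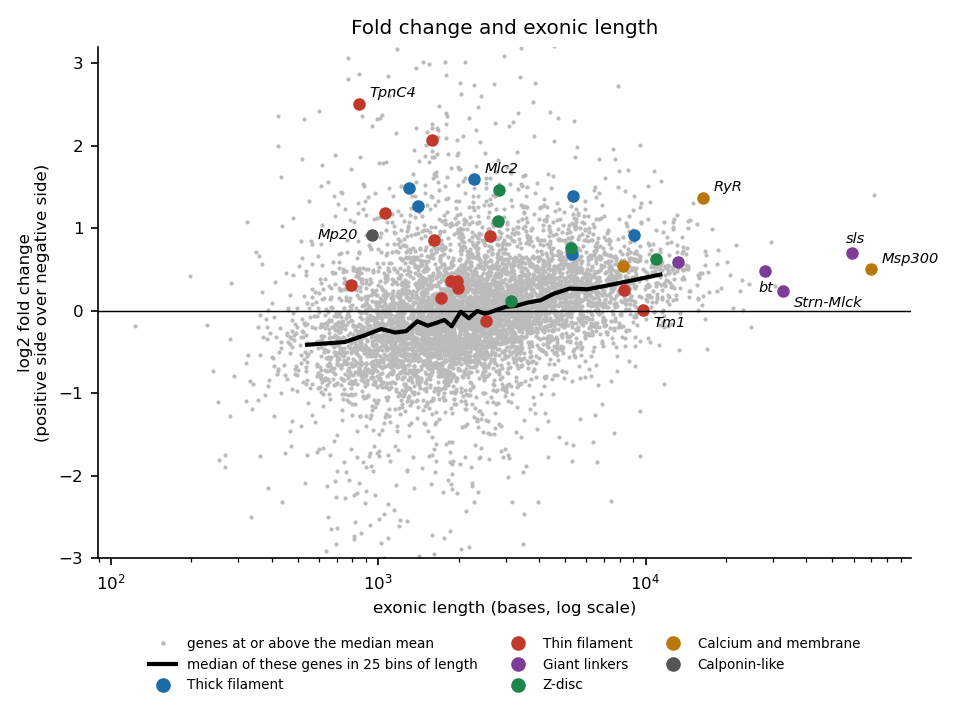
Log2 fold change against exonic length (log scale) for the muscle genes, coloured by role, and for genes with a mean at or above the table median (grey), of which a few lie beyond the axis limits, with the median of the grey genes in 25 length bins (line). The giant linker genes and Msp300 lie close to the level of the line at its long end, while TpnC4, Mlc2 and Mp20 lie far above it.

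Taking from each gene the median of genes of like length and mean left 17 positive calls and 1 negative call among the 32 muscle genes, against 22.0% and 20.6% of all genes. The median of the muscle genes became 0.41. Calls were lost for sls (0.22, adjusted p = 0.607), Unc-89 (0.03, adjusted p = 0.947), Mf (0.41, adjusted p = 0.0532), Zasp52 (0.33, adjusted p = 0.190) and SERCA (0.24, adjusted p = 0.231). Calls were gained for Act57B (0.39, adjusted p = 0.00950), Act87E (0.41, adjusted p = 0.0182) and wupA (0.50, adjusted p = 0.0105), and Tm1 was called on the negative side at -0.29 (adjusted p = 0.000170). These p-values are from a Wald test with the deposited standard errors and Benjamini-Hochberg adjustment. The median taken away is treated as fixed, so they test a difference from that median and leave out the spread of like genes. Tm1, at 0.01 before the adjustment, was thus called lower than the median of like genes, 0.30, and not lower than 0. Of the genes under 1 kb, Mp20 moved up to 1.46 and TpnC4 to 2.84, while TpnC47D moved down to -0.14. Of the giant linker genes, 0 of 4 was called, with a median of 0.01. The 8 genes past the 0.5 threshold all stayed called on the positive side in the test against 0. Against the 0.5 threshold itself, 7 muscle genes passed after the adjustment.

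The cytoplasmic counterparts of these proteins had a median below 0. The 14 non-muscle actin and myosin genes gave 3 positive and 4 negative calls, with a median of -0.20. These shares of 21.4% and 28.6% were near those of all genes, 27.0% and 22.0%. Adjusted for length and mean, the counts were 1 and 4, the median was -0.08, and jar was no longer called (0.19, adjusted p = 0.126 in the Wald test). Act5C, the main cytoplasmic actin, stood at -0.48 (SE 0.09, adjusted p = 1.52e-06) with a mean of 10978, more than all muscle actin genes together, in the authors' deposited table. The non-muscle essential light chain Mlc-c was at -0.56 (SE 0.11, adjusted p = 3.97e-06), while jar, myosin VI, was at 0.47 (SE 0.10, adjusted p = 1.97e-05) in the deposited table. The non-muscle regulatory light chain sqh, a choice made with its value known because it is the counterpart of Mlc2, was not called at -0.27 (SE 0.13, adjusted p = 0.0613) in the authors' deposited table.

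Before any adjustment, calls among other genes of the sarcomere and of excitation were mostly positive. Among all genes, 27.0% were called positive and 22.0% negative, and 22.0% and 20.6% after the adjustment for length and mean. The 9 further sarcomere genes gave 5 positive calls (55.6%) and 1 negative call (11.1%), with a median of 0.63. After the adjustment they gave 3 and 2, with a median of 0.33. Among them were tn, a protein that keeps myofibrils intact, at 1.01 (SE 0.16, adjusted p = 1.33e-09), the filamin cher at 0.63 (SE 0.13, adjusted p = 4.38e-06) and the actin-lengthening factor sals at 0.98 (SE 0.25, adjusted p = 0.000332) in the authors' deposited table. The negative one was the myosin chaperone unc-45 at -0.21 (SE 0.08, adjusted p = 0.0250) in the deposited table, a gene picked out once its value was known. The 12 tested genes of excitation and calcium handling gave 7 positive calls (58.3%) and 1 negative call (8.33%), with a median of 0.91. After the same adjustment they gave 3 and 1, with a median of 0.28, the positive count being near the share of all genes. The sodium/calcium exchanger Calx was at 1.22 (SE 0.24, adjusted p = 2.3e-06) and the calcium channel olf186-F, the fly Orai, at 0.42 (SE 0.09, adjusted p = 1.52e-05) in the authors' deposited table. With the adjustment olf186-F was no longer called (0.07, adjusted p = 0.558). The sarcoplasmic calcium-binding protein gene Scp2 was the negative one, at -1.09 (SE 0.19, adjusted p = 6.43e-08) in that deposited table.

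The lists of muscle development and of the muscle surface had medians between 0.16 and 0.66. Beside their counts, all genes gave 27.0% positive and 22.0% negative calls, and 22.0% and 20.6% once adjusted for length and mean. Among 14 tested factors of muscle development there were 7 positive calls and 1 negative call, with a median of 0.66, which became 4 and 1 with a median of 0.12 after the adjustment for length and mean. The RNA-binding protein how stood at 0.78 (SE 0.08, adjusted p = 1.19e-18), ewg at 0.89 (SE 0.10, adjusted p = 2.2e-16) and sd at 0.83 (SE 0.12, adjusted p = 4.99e-11) in the authors' deposited table. Mef2, which activates many sarcomere genes and was added for that role with its value known, was at 0.73 (SE 0.13, adjusted p = 2.69e-07) in the deposited table, a call that the adjustment ended (0.25, adjusted p = 0.122). The 10 myoblast fusion genes gave 6 positive calls and 1 negative call, with a median of 0.38, but 2 and 2 with a median of 0.12 after the adjustment. For these the authors' deposited table gave 0.74 for Swip-1 (SE 0.14), 0.57 for kirre (SE 0.13) and 1.06 for blow (SE 0.28), of which kirre was no longer called once adjusted (0.18, adjusted p = 0.277).

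The 17 integrin attachment genes gave 5 positive and 0 negative calls, with a median of 0.21, a share of 29.4% beside 27.0% of all genes. After the adjustment for length and mean there were 3 and 0, beside 22.0% and 20.6% of all genes, and the median was -0.01. Tsp, a thrombospondin of the muscle-tendon junction, was at 1.04 (SE 0.18, adjusted p = 1.1e-07), Pax at 0.48 (SE 0.09, adjusted p = 2.65e-06) and Zyx at 0.29 (SE 0.07, adjusted p = 0.000164) in the authors' deposited table. The dystrophin complex gave 4 positive and 2 negative calls of 8, with Scgdelta at 1.64 (SE 0.35), Dg at 0.65 (SE 0.15) and Scgalpha at -0.99 (SE 0.27) in the deposited table. This balance turned with the adjustment, to 0 positive and 3 negative calls and a median of -0.08, with Scgdelta (0.56, adjusted p = 0.197) and Dg (0.32, adjusted p = 0.0785) no longer called. The 9 tested neuromuscular receptor and postsynaptic genes gave 4 positive and 0 negative calls, with Nlg2 at 2.60 (SE 0.49), Nlg1 at 1.26 (SE 0.35) and GluRIIA at 0.85 (SE 0.27) in the authors' deposited table. Adjusted, this list gave 2 positive and 2 negative calls, and Nlg1 was no longer called (0.41, adjusted p = 0.366). The negative ones were GluRIIC (-1.50, adjusted p = 5.03e-06) and Neto (-0.78, adjusted p = 1.16e-06), named once their values were known.

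Energy genes that muscle uses in large amounts lay on the other side. Of 6, 5 were called on the negative side, against 22.0% of all genes, with a median of -0.45. The malate dehydrogenase Mdh2 was at -0.86 (SE 0.11, adjusted p = 2.95e-14), the glycerophosphate oxidase Gpo1 at -0.92 (SE 0.16, adjusted p = 8.4e-08) and the citrate synthase kdn at -0.47 (SE 0.11, adjusted p = 0.000129) in the authors' deposited table. The positive one was arginine kinase, Argk, the phosphagen kinase of insect muscle, at 0.45 (SE 0.14, adjusted p = 0.00399) in the deposited table, a gene outside the 3 smallest adjusted p that is given because it was the exception. After the adjustment for length and mean it was not called (0.32, adjusted p = 0.0526), and the 5 negative calls stayed at 5. Fat body also expresses these enzymes, and the share that came from muscle is unknown.

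**Figure D4:**
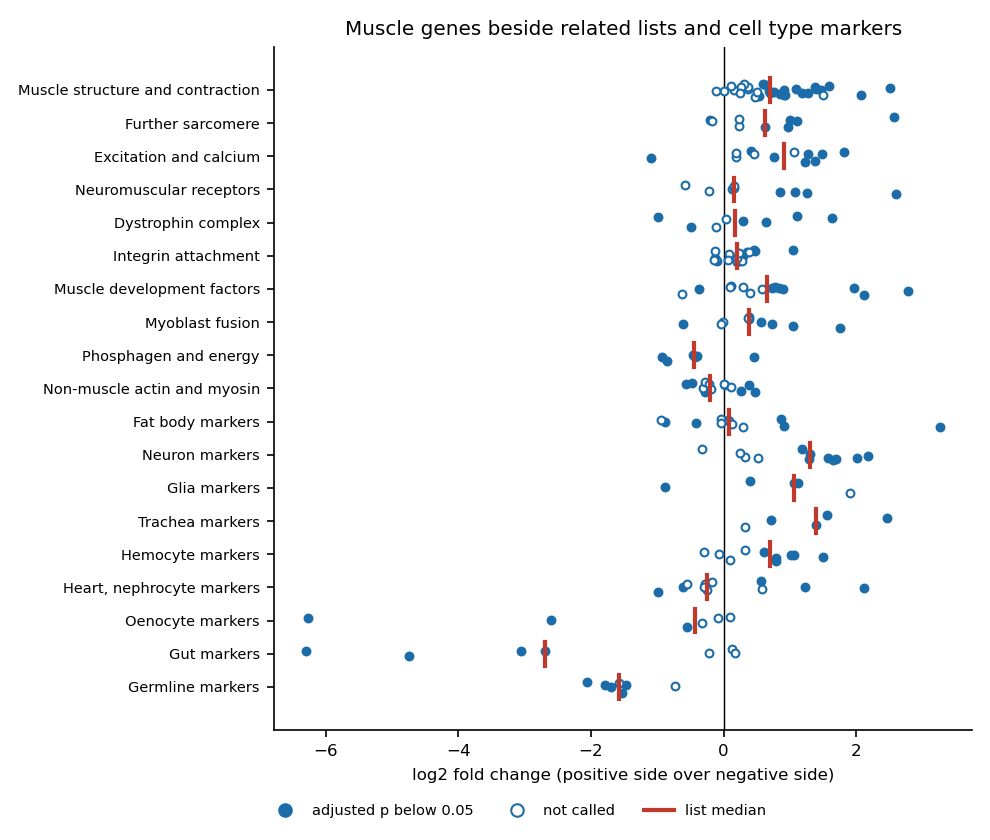
Deposited log2 fold changes of the muscle genes, of related muscle lists and of cell type markers, 1 point a gene, filled where the adjusted p is below 0.05, with the list median as a red bar. Muscle, neuron, glia, trachea and hemocyte lists have medians above 0.6, while germline and gut markers have medians of -1.58 and -2.70.

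Called markers of neurons, trachea and hemocytes lay on the same side as the muscle genes in the deposited comparison. For all genes the positive and negative shares were 27.0% and 22.0%, and 22.0% and 20.6% after the adjustment for length and mean. The 12 neuron markers gave 8 positive and 0 negative calls, with a median of 1.30 and summed means of 970.7. Adjusted for length and mean they gave 5 and 1, with a median of 0.56. The authors' deposited table put cpx, a regulator of synaptic release, at 1.58 (SE 0.14), the RNA-binding protein elav at 1.69 (SE 0.16) and the sodium channel para at 1.65 (SE 0.26). The neuron marker below 0 was nSyb, not called at -0.33 (SE 0.29) in the deposited table and named once its value was known. Once adjusted, nSyb was the negative call (-0.70, adjusted p = 0.0372). The 5 trachea markers gave 4 positive and 0 negative calls (median 1.39, summed means 287.2), and 3 and 0 after the adjustment (median 1.44). Here verm stood at 2.47 (SE 0.19), Gasp at 1.39 (SE 0.16) and serp at 1.56 (SE 0.21) in the authors' deposited table, all of which act on the chitin of the tracheal tube. The 10 hemocyte markers gave 6 and 0 (median 0.70, summed means 5180), and 5 and 1 after the adjustment (median 0.50). They included the GATA factor srp at 0.79 (SE 0.11), the phagocytosis receptor eater at 1.01 (SE 0.17) and the prophenoloxidase PPO2 at 1.49 (SE 0.27) in the deposited table. Of the srp mean of 813.4, the share that came from hemocytes is unknown. Below 0 and not called were Hml at -0.07 (SE 0.27) and lz at -0.29 (SE 0.35) in the deposited table, named once their values were known. Once adjusted, lz was the negative call (-0.85, adjusted p = 0.0380).

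Other markers were mixed or lay on the negative side. The shares of all genes were 27.0% positive and 22.0% negative, and 22.0% and 20.6% after the adjustment for length and mean. Glia markers gave 3 positive and 1 negative of 5 (median 1.07), and 1 and 1 after the adjustment (median 0.23), with nrv2 at 1.13 (SE 0.12), Gs2 at -0.88 (SE 0.16) and repo at 1.07 (SE 0.29) in the authors' deposited table. With the adjustment repo lost its call (0.14, adjusted p = 0.750). Fat body markers gave 3 and 2 of 12 (median 0.08), or 25.0% and 16.7%, near the shares of all genes, and 3 and 3 after the adjustment (median -0.19). Among these markers were the hexokinase Hex-C at 0.91 (SE 0.13), Fbp2 at 3.27 (SE 0.58) and apolpp at -0.88 (SE 0.19) in the deposited table. The 11 heart and nephrocyte markers gave 3 positive and 2 negative calls, or 27.3% and 18.2%, also near the shares of all genes. Their median was -0.25, and the adjustment left 2 and 2. Among them prc, a heart collagen, was at 2.11 (SE 0.36), Sur at 1.23 (SE 0.27) and kirre, also in the fusion list, at 0.57 (SE 0.13) in the authors' deposited table. Negative calls there were sns at -0.60 (SE 0.17) and Doc3 at -0.98 (SE 0.39), named once their values were known. Adjusted, the list median was -0.36. Neither kirre (0.18, adjusted p = 0.277) nor Doc3 (-0.90, adjusted p = 0.0509) was still called. Adjusted negative calls were sns (-1.17, adjusted p = 5.00e-11) and Cubn (-0.47, adjusted p = 0.000127), likewise named with values known. Negative calls prevailed for oenocyte markers, 3 of 6 and 0 positive, gut markers, 4 of 7 and 0 positive, and germline markers, 5 of 7 and 0 positive. After the adjustment these negative counts were 4, 4 and 5. For oenocytes the authors' deposited table gave -2.60 for eloF (SE 0.25), -6.26 for Fad2 (SE 0.75) and -0.55 for Cyp4g1 (SE 0.15). Gut markers with the smallest adjusted p were LysB at -6.29 (SE 0.41), Npc1b at -3.05 (SE 0.36) and Jon25Bi at -2.70 (SE 0.49), and germline markers AGO3 at -2.06 (SE 0.43), exu at -1.47 (SE 0.40) and vas at -1.78 (SE 0.65), in the authors' deposited table. Means below 1 were found for VGlut among the neuron markers and for tin among the heart markers, 0.99 and 0.88 in the deposited table. The part of such cells in the muscle result was not tested.

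Standard errors of muscle genes were large for their means. Of the 32, 28 had a standard error above the median of the 200 genes nearest in mean, and the median ratio was 1.43. Act88F stood furthest out, with a standard error 5.04 times that of genes of like mean and larger than 99.0% of them. TpnC4 was at 2.40 times, sls at 2.37, Msp300 at 2.11, bt at 2.10 and Prm at 2.07. At the other end, Tm1 was at 0.55 times, with only 5.0% of genes of like mean below it, and TpnC47D, Actn and Act57B were at 0.91, 0.96 and 0.98. At a given mean, the standard error rises with the spread between libraries in the authors' fit, and the table does not show which libraries carried that spread.

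**Figure D5:**
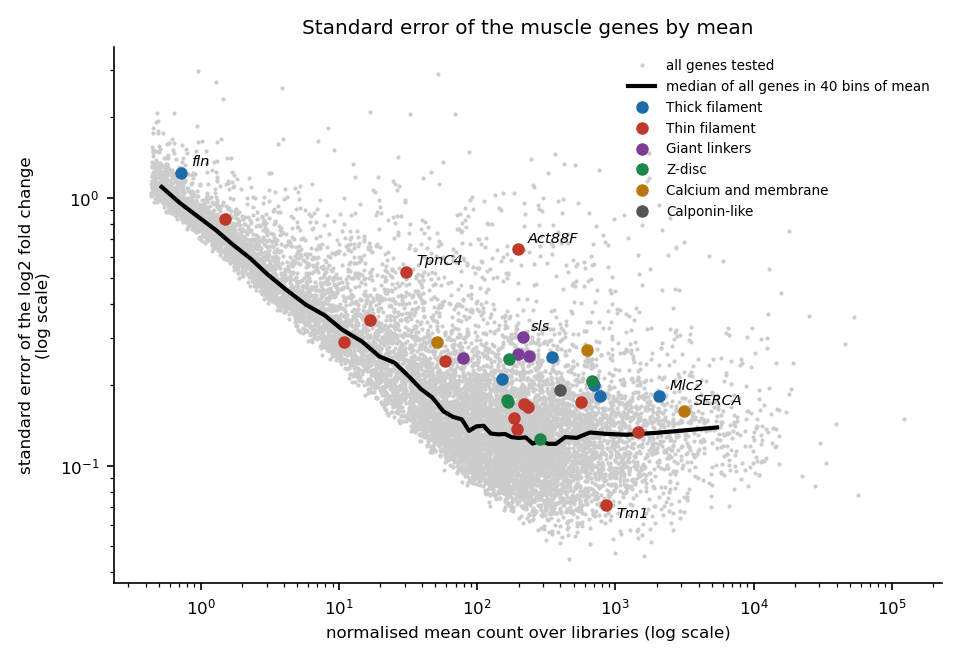
Standard error of the log2 fold change against normalised mean count (both log scales) for all genes tested (grey, with their median in 40 bins of mean as a line) and for the muscle genes, coloured by role. Most muscle genes lie above the line, Act88F furthest, and Tm1 lies well below it.

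The 32 genes lay on 6 chromosome arms or chromosomes, with 11 on 2R, 9 on 3R, 6 on 3L, 3 on X, 2 on 2L and 1 on 4. Genes with calls on the positive side came from all of these except chromosome 4, which carries bt. In genome release 6, Mlc2 (FBgn0002773) spans 30171438 to 30174551 on 3R, Mhc (FBgn0264695) 16766566 to 16788766 on 2L, Act88F (FBgn0000047) 15439969 to 15442177 on 3R and Prm (FBgn0003149) 8732858 to 8745310 on 3L. Exons of 5 of the 32 genes overlap exons of another gene in the table, namely Act87E, Tm1, sls, Strn-Mlck and Actn. Reads in stretches shared with the opposite strand cannot be assigned to 1 gene without strand. The stretch that Actn shares with usp is on the same strand, so strand would not separate those reads.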

How the data were processed

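Poly-A RNA of 24 fat body libraries was sequenced, 6 in each of 4 groups. The submitters' processing notes name the genome build dm6 and the tools Bowtie2, cutadapt, DESeq2, FastQC, Picard, SAMtools and Trim Galore. Tool versions, annotation, strand setting and read counter are not stated in these sources. Per the file headers, the authors deposited a mean normalised count per gene (in the signal unit), a log2 fold change and its standard error on the log2 scale, a test statistic (a score, deposited by the authors), and a p-value with its adjusted p-value. Checked on the deposited values, the statistic is fold change over standard error, p-values are those of a two-sided normal test, and the Benjamini-Hochberg adjustment covers 11399 genes. A further 1795 genes had a p-value only and 40 had none.

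The calls are the authors' adjusted p below 0.05. Intervals are 95% normal intervals from the deposited standard errors. The Wald test against a fold threshold, the centring and the adjustment for exonic length and mean (25 bins of length, 5 of mean in each, muscle genes left out of the medians) were computed in Python 3.11.15 with numpy 2.4.6, pandas 2.3.3 and scipy 1.17.1. The Wald test and the adjustment were tested on simulated data, there with no gene left out of the medians. The centring was not tested in this way. Lengths and positions came from Ensembl release 115 on genome release 6, which uses dm6 coordinates. By symbol 12521 genes matched, and by synonym 668 more. Of the related lists, 2 genes, Lasp and SclA, were not analysed here. The members and lists were chosen with earlier results of these data known. Every muscle gene is named, and of each other list the 3 genes with the smallest adjusted p. Exceptions are marked, or are markers given for their means. The depth per library is unknown, and nothing ties libraries to separate cultures or batches, so p-values measure only the spread between these libraries. Single values per library, and so refits, were not possible.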

Additional observations from a re-analysis of the deposited data

How the results depend on the processing

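The count of 19 muscle genes called on the positive side stayed within 1.5 times under each alternative run: adjusted p below 0.01 gave 16, no filter on low means 19, a mean of at least 10 gave 19, a mean of at least 100 gave 14 of 24, centring on the median of well-expressed genes 19, and the adjustment for length and mean 17. Without the muscle actin genes 17 of 28 were called, and without the genes with exon overlaps, an alternative chosen after seeing the data, 17 of 27. Dropping genes leaves the authors' calls of the others as they are, so no call could change there. Centring took away a median of only -0.011, so it could hardly move a call. Shares over all genes were computed for the authors' calls, the fold threshold of 0.5 and the adjustment for length and mean. The counts under the other cutoff, the mean filters, the centring and the fold threshold of 1 therefore have no such share beside them. The count on the negative side was 0 under these settings, except that the adjustment for length and mean gave 1, Tm1, and with it the median moved to 0.41. The 8 genes past the fold threshold of 0.5 became 5 of 24 with a mean of at least 100, where fewer genes were tested, and 1 with a threshold of 1, which is stricter by construction. At the threshold of 0.5 the count was 6 with adjusted p below 0.01, 7 with no filter on low means and 7 after the adjustment for length and mean. Under the adjustment for length and mean, the estimate changed sign for Tm1 (-0.29), TpnC41C (-0.11), TpnC47D (-0.14), tmod (-0.23), bt (-0.0025) and Strn-Mlck (-0.24), none of which was called before it; the medians of like genes, between 0.30 and 0.48, exceeded these genes' own estimates. Centring and the missing filter altered no single gene's call. No paired analysis was possible because the deposited table holds no value per library, and for the same reason replicates could not be left out.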
